A study of Mus musculus with 15 samples.

Results

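Gene expression in crypts of the mouse small intestine was compared between mice given blocking antibodies against Notch1 and Notch2 (the N1N2 group) and mice given a control IgG. The comparison used the 5 arrays titled as control crypts and the 5 titled as N1N2 treated crypts, 10 of the 15 arrays of the series. The mice were 6 to 8 weeks old and had received a single dose 24 h earlier. For the Notch antibodies the labels state a concentration of 1 mg/mL, with no amount per animal, and strain and sex are not given in the sources used here. The sample labels name an IgG control antibody, while the series design calls the controls untreated. The other 5 arrays, of mice given the same Notch antibodies with 30 mg/kg of an antibody against the Wnt coreceptor Lrp6, entered the fit only to share its estimate of the spread. The series design calls the arrays of a group biological replicates, but whether an array holds RNA of 1 animal or of a pool is not given, so the p-values measure the spread between arrays, which may be technical. Crypts were shaken loose from chopped intestine after chelation with EDTA and strained, and other cells of the gut wall may have come with them.

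Crypts are the epithelial pits in which stem cells divide and their daughters choose a fate. Notch receptors on one cell are activated by Delta or Jagged ligands on its neighbour, and the part of the receptor that is cut free enters the nucleus, joins Rbpj and switches on genes such as Hes1, a repressor of Atoh1. In the intestine this pathway is known to keep crypt cells dividing and absorptive, while cells that escape it express Atoh1 and become goblet, Paneth, enteroendocrine or tuft cells.

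Crypt RNA was labelled red (Cy5) and hybridised with a green (Cy3) universal mouse reference on every array, with no dye swap. Each value is therefore a log2 ratio of crypt over reference, and values are compared between arrays for 1 gene, never between genes. Values listed for single arrays follow the order of replicates 1 to 5. Between 70.1% and 79.8% of the spots of these arrays were well above background in red, with means of 75.8% ± 4.19 in the control group and 73.9% ± 3.05 in the N1N2 group (SD, n = 5 each). Control arrays 1 to 3 lay on 1 slide, N1N2 array 3 on another and N1N2 arrays 4 and 5 on another. A single slide, called the shared slide here, held both groups (control arrays 4 and 5 and N1N2 arrays 1 and 2). It is the only place where slide and group can be separated. The 20 epithelial identity genes, among them Epcam, Vil1 and Cdx2, averaged 4.81 ± 0.05 over the control arrays and 4.93 ± 0.21 over the N1N2 arrays. All 20 were well above background on every array. In the fit described below 1 of them rose (5%, against 6.57% of all features). Their median change was 0.15, but ran from -0.44 to 0.53 under other processing, so its direction depended on the processing.

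In all, 23939 features (1 probe for each gene, or an unnamed probe) could be tested. With limma and a threshold of 0.05 on the adjusted p, N1N2 crypts had 1573 features higher than control (6.57%) and 1232 lower (5.15%), 11.7% in either direction. The change was at least 2-fold for 209 of the former and 58 of the latter. All 1573 and all 1232 kept their sign on the shared slide, whose arrays are among the 10 that made the calls. The sign or size of a called gene's difference there is thus no separate support for its call. Adjusted p-values given with such a difference come from a fit with slide added as a block, whose spread draws on other slides too. The N1N2 values lay above the control values on all 10 arrays, with no overlap, for 6.14% of the features, and below them for 5.9%. The higher features made up 56.1% of those that passed, but 45.8% when each array was centred on its median in place of loess. When flagged spots (uneven spots, outliers or uneven backgrounds) were kept in the background fit and left out only after it, the higher features made up 70.3%. Leaving out 1 array mostly left fewer calls, with the lowest numbers without control 2 (939 higher, 607 lower), control 5 (961 and 592) or N1N2 array 4 (925 and 674). The plot of 32 gene lists shows how their members changed. The lists were chosen with earlier results of these data known, so a list that stands off 0 is a description and no test. The members of most lists scatter around 0. To the right of it stand the lists of secretory and enteroendocrine transcription factors, goblet products, glycosylation and protein folding. To the left stand those of DNA replication, nucleotide synthesis and mitosis, and less far that of retinoid and drug metabolism (median -0.23).

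**Figure D1:**
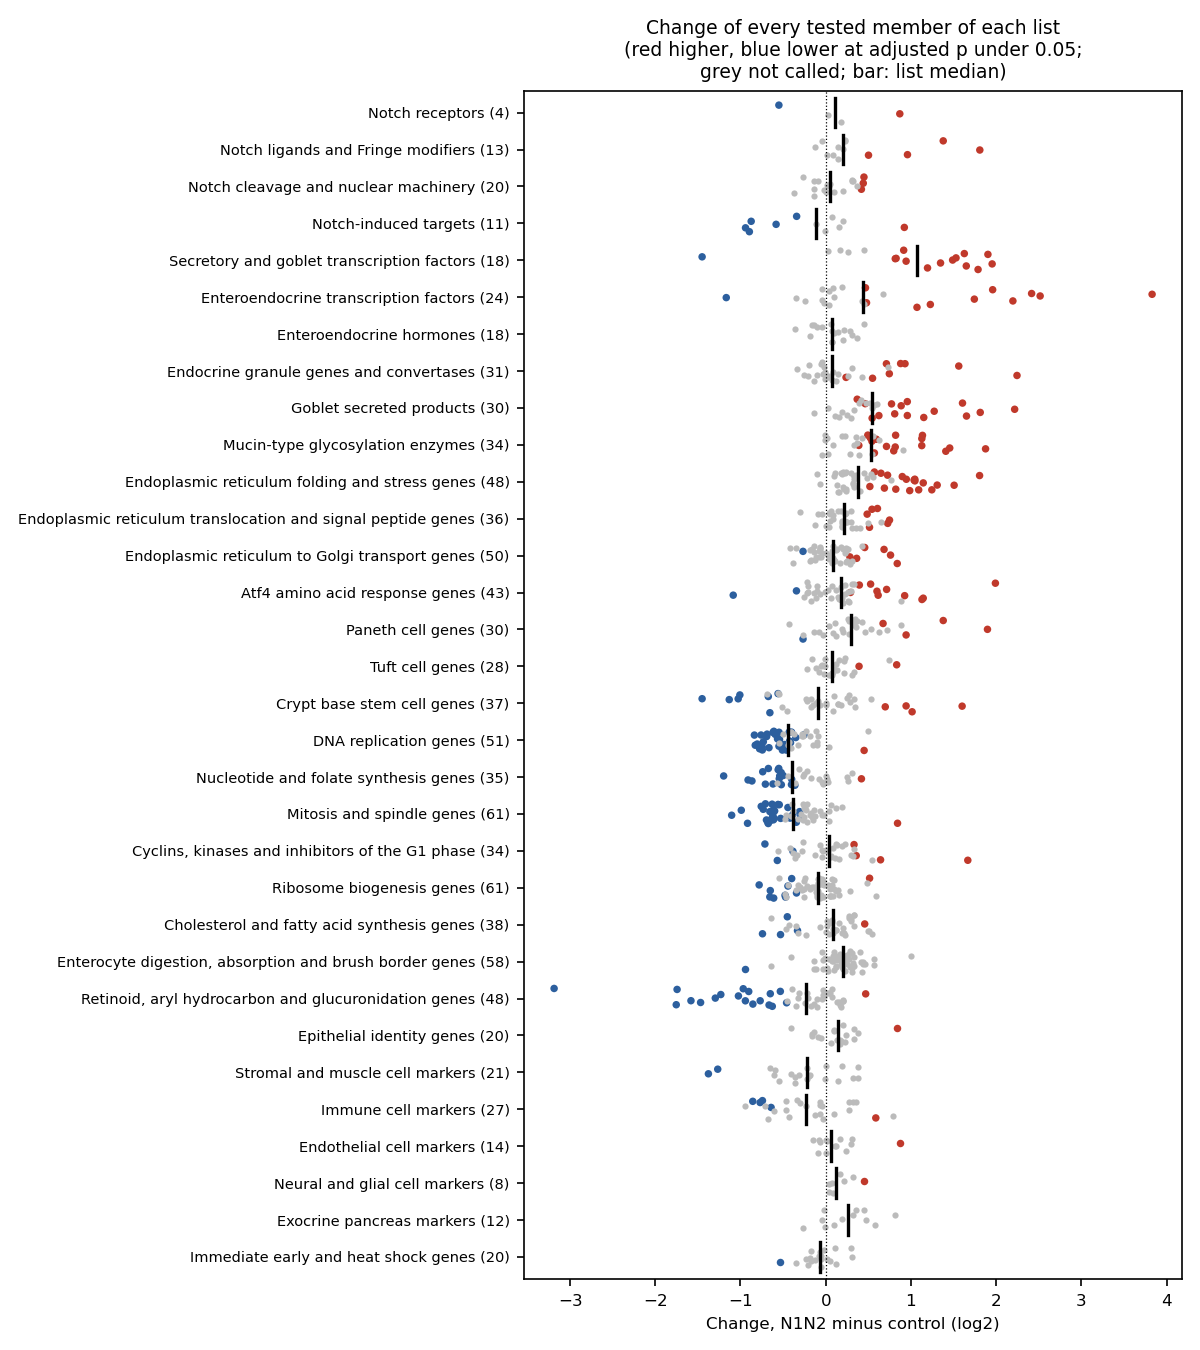
Change of every tested member of 32 gene lists, as the N1N2 mean minus the control mean in log2 units (x axis), with the number of members tested after each name. Red and blue points passed limma's test at an adjusted p under 0.05, grey points did not, and the black bar is the list's median, 1.07 for secretory and goblet transcription factors and -0.44 for DNA replication genes.

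Several genes switched on by Notch were lower in the N1N2 group. Of 14 Notch-induced genes 11 could be tested, 5 fell and 1 rose, against 5.15% and 6.57% of all features. Hes1, the repressor that holds down Atoh1, had log2 ratios of -0.27, -0.12, -0.31, 0.01 and 0.33 on the control arrays and -1.08, -0.88, -0.84, -1.03 and -0.90 on the N1N2 arrays. Every N1N2 array lay below the lowest control array, and the 2 control arrays of the shared slide were the highest. Hes1 was 1.83-fold lower (log2 change -0.87, SE 0.13, adjusted p = 0.000655) and the difference on the shared slide was -1.15. Nrarp, a small inhibitor of Notch that Notch itself induces, had values of 1.32, 1.73, 1.40, 1.86 and 1.80 on the control arrays and 0.60, 0.60, 0.98, 0.69 and 0.75 on the N1N2 arrays. The groups did not overlap, and Nrarp fell by 0.90 (adjusted p = 0.000813). The Deltex genes Dtx1 and Dtx4, which encode ubiquitin ligases of the pathway, fell by 0.94 and 0.58, and Heyl by 0.34 with 1 N1N2 array reaching the control range. Hes7, better known from the segmentation clock, rose by 0.92. Hes5, Hey1, Hes2, Id3 and Dtx3 had changes between -0.12 and 0.21 and did not pass. When slide was added to the model as a block, so that 4 arrays carried the difference, Hes1 (adjusted p = 0.0319) and Nrarp (adjusted p = 0.0128) passed and no other member did. Without the shared slide's arrays Nrarp was at -0.67 (adjusted p = 0.0747), and with flagged spots kept in the background fit 2 members fell.

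Of the 4 receptors 1 fell and 1 rose, where 5.15% and 6.57% of all features did. Notch2, a target of the antibodies, had values of -1.86, -1.58, -1.47, -2.03 and -1.42 on the control arrays and -2.22, -2.06, -2.33, -2.24 and -2.26 on the N1N2 arrays. The groups did not overlap, though control array 4 came next to the N1N2 arrays. Notch2 RNA fell by 0.55 (adjusted p = 0.0154), but a second Notch2 probe was at -0.06, and Notch1, the other target, was at 0.03 (adjusted p = 0.939) with overlapping groups. The antibodies act on the receptor proteins, and RNA levels do not measure that block. Notch4, known mainly from blood vessels, had values of 0.38, 0.19, 0.58, 0.47 and 0.35 on the control arrays and 0.66, 1.25, 1.48, 1.58 and 1.35 on the N1N2 arrays. It rose by 0.87 (adjusted p = 0.00253), with N1N2 array 1 closest to the controls. The other 13 endothelial markers tested did not pass, Pecam1 being at 0.23, Cdh5 at -0.08 and Kdr at 0.16.

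Delta ligands rose and Jagged ligands did not pass. Of 13 ligand and ligand-modifier genes tested, 4 rose (30.8%, against 6.57% of all features) and none fell. The list median was 0.21, against 0.0019 over all features. Dll1, the Delta ligand of secretory progenitors, had values of 3.31, 3.51, 3.84, 3.57 and 3.58 on the control arrays and 5.24, 5.31, 5.64, 5.40 and 5.26 on the N1N2 arrays. The groups lay far apart, and replicate 3 was the highest of each. Dll1 was 3.5-fold higher (log2 change 1.81, SE 0.11, adjusted p = 2.99e-07). Its difference on the shared slide was 1.70 on the log2 scale (adjusted p = 0.00216 with slide as a block). Dll4, the ligand that Paneth cells also carry, had values of 1.11, 0.99, 1.52, 1.15 and 1.16 on the control arrays and 2.13, 2.48, 3.15, 2.47 and 2.60 on the N1N2 arrays. It was 2.6-fold higher (log2 change 1.38, SE 0.17, adjusted p = 0.000135) with no overlap. Lfng, a Fringe glycosyltransferase that tunes which ligands a receptor answers, rose by 0.96, and Neurl1a, a ligase that drives ligand uptake, by 0.50. The Jagged ligands Jag1 (0.08) and Jag2 (0.01) did not pass. Of 20 genes for receptor cutting and the nuclear complex, 3 rose (15%, against 6.57% of all features), namely Maml3, Spen and Fbxw7. They rose by between 0.42 and 0.45, and a second Maml3 probe was at 0.07. Leaving out control array 2 or 5 or N1N2 array 2 or 4 left 1 rise, and leaving out control array 3 gave 5. None of these 3 passed with slide as a block or with median centring. Rbpj (-0.14) and the receptor-cutting protease Adam10 (0.31) did not pass.

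**Figure D2:**
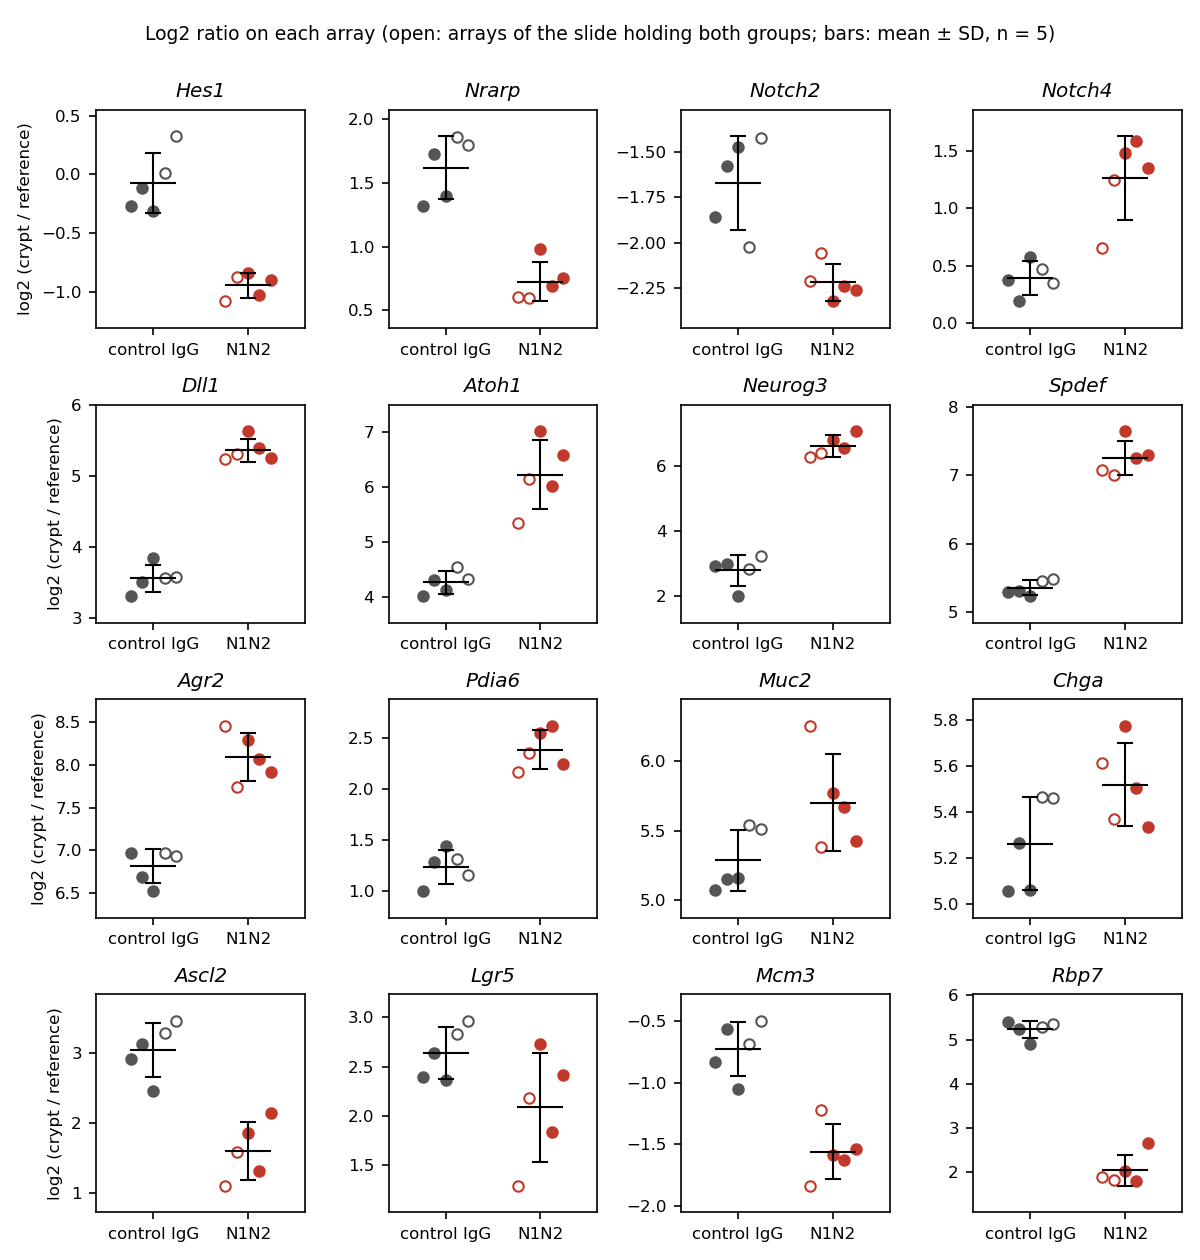
Log2 ratio of crypt over reference on each array (y axis, 1 scale per gene) for 16 genes in the control IgG and N1N2 groups. Open points are the arrays of the shared slide and bars give the mean ± SD (n = 5); Hes1, Nrarp, Dll1, Neurog3, Spdef and Rbp7 show groups that do not overlap, while Lgr5, Muc2 and Chga overlap.

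Transcription factors of the secretory lineage rose together. Of 18 tested, 13 rose (background 6.57%) and 1 fell, the list median was 1.07 and 9 of those that rose did so at least 2-fold. Atoh1, which commits a crypt cell to the secretory lineage, had values of 4.02, 4.32, 4.14, 4.56 and 4.33 on the control arrays and 5.35, 6.15, 7.02, 6.02 and 6.59 on the N1N2 arrays. All N1N2 arrays lay above all control arrays, N1N2 array 1 lowest and array 3 highest. Atoh1 was 3.87-fold higher (log2 change 1.95, SE 0.25, adjusted p = 0.000161). Spdef, which drives goblet and Paneth cell maturation, had values of 5.29, 5.31, 5.23, 5.46 and 5.48 on the control arrays and 7.08, 7.002, 7.65, 7.25 and 7.29 on the N1N2 arrays. The control arrays lay close together and the N1N2 arrays well above them, and Spdef was 3.74-fold higher (log2 change 1.90, SE 0.13, adjusted p = 7.15e-07), also on the shared slide (1.58, adjusted p = 0.000128). Gfi1, a repressor acting downstream of Atoh1, had values of -0.32, -0.10, -0.54, -0.16 and -0.09 on the control arrays and 0.91, 1.70, 1.67, 1.79 and 1.65 on the N1N2 arrays. N1N2 array 1 stood below the rest of its group, and Gfi1 was still above every control array there.

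The other members that rose include Creb3l4 (1.65) and Creb3l1 (1.63), membrane-bound factors of secretory cells, and Bhlha15 (1.49), which sets up secretory granules and is also called Mist1. Sox4 rose by 1.53, and the forkhead factors Foxa2, Foxa3 and Foxa1 by 1.35, 1.19 and 0.83. Tead2, Sox9 and Hes6 rose by 0.92, 0.94 and 0.82. Xbp1 (0.45), Klf4 (0.26), Elf3 (0.17) and Sox21 (0.02) did not pass. The member that fell was Ascl2, a factor of stem cells described with them. For 9 of the 13 that rose, N1N2 array 1 was the lowest of its group. Without the 4 arrays of the shared slide the same number, 13, rose, and with slide as a block 5 did. In RNA of whole crypts, more cells of a type and more RNA per cell cannot be told apart, here and in all groups that follow.

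Many factors of the enteroendocrine lineage rose, and none of its hormones passed the test. Of 24 enteroendocrine transcription factors tested, 10 rose (41.7%) and 1 fell (4.17%), with a median of 0.44. Over all features 6.57% rose and 5.15% fell. Among the members, St18 (0.45) had entered the test only through its N1N2 arrays and did not pass. Neurog3, which every enteroendocrine precursor switches on for a short time, had values of 2.92, 2.99, 1.99, 2.84 and 3.22 on the control arrays and 6.27, 6.39, 6.81, 6.56 and 7.09 on the N1N2 arrays. The groups were far apart, control array 3 being the lowest of all. Neurog3 was 14.2-fold higher (log2 change 3.83, SE 0.27, adjusted p = 8.53e-07), with 3.30 on the shared slide (adjusted p = 0.00457). Cbfa2t3, a corepressor of the ETO family, had values of 0.83, 0.94, 1.19, 1.19 and 1.16 on the control arrays and 2.99, 3.69, 3.80, 3.81 and 3.61 on the N1N2 arrays, and was 5.72-fold higher, but a second probe for it gave a change of -0.11. Rcor2, a subunit of the CoREST repressor complex, had values of -3.68, -3.68, -3.74, -3.64 and -3.61 on the control arrays and -1.76, -1.14, -1.31, -0.997 and -1.06 on the N1N2 arrays. The control arrays were nearly alike and the N1N2 arrays all higher, by 5.34-fold (log2 change 2.42, SE 0.16, adjusted p = 4.76e-07).

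Rfx6, which follows Neurog3 in endocrine precursors, had values of 1.11, 0.84, 0.95, 1.09 and 1.06 on the control arrays and 2.17, 3.44, 3.56, 3.36 and 3.51 on the N1N2 arrays. N1N2 array 1 lay far below the others of its group and above all controls, and Rfx6 was 4.58-fold higher (log2 change 2.20, SE 0.22, adjusted p = 1.87e-05). Pax4, Insm1 and Nkx2-2, further factors of endocrine precursors, rose by 1.96, 1.74 and 1.23, and Neurod2 by 1.07. Isl1 and Runx1t1 rose by 0.47 and 0.48, and Nkx6-3, a factor of stomach endocrine cells, fell by 1.17 (second probe -0.23). Neurod1 (0.43, adjusted p = 0.0759) and Pax6 (-0.04), factors of later endocrine cells, did not pass. N1N2 array 1 was the lowest of its group for 9 of the 10 factors that rose.

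None of the 18 hormone genes tested passed in either direction, where 11.7% of all features did, and for so few genes none is not far from that share. Their median was 0.08, but -0.10 with scaling and 0.34 with flagged spots kept in the background fit. Under other processing at most 1 rose and at most 2 fell. Changes ran from -0.36 for Tph1, the serotonin-making enzyme, to 0.45 for the substance P gene Tac1, with secretin (Sct) at 0.31 and cholecystokinin (Cck) at -0.19. Chga, a protein of hormone granules, had values of 5.06, 5.27, 5.06, 5.46 and 5.46 on the control arrays and 5.61, 5.37, 5.78, 5.50 and 5.34 on the N1N2 arrays. The groups overlapped and the change was 0.26 (adjusted p = 0.212). Of 31 granule, channel and convertase genes 8 rose (25.8%, against 6.57% of all features) and none fell, led by the calcium channel gene Cacna1a. The list median was 0.07, and 5 rose without N1N2 array 4. Cacna1a had values of -1.14, -1.40, -1.41, -1.26 and -1.14 on the control arrays and 0.63, 1.02, 0.56, 1.44 and 1.22 on the N1N2 arrays, with no overlap, and was 4.74-fold higher. Syt13 rose by 1.56, the hormone convertase Pcsk1 by 0.88, the potassium channel subunit Abcc8 by 0.75 and the vesicular monoamine transporter Slc18a1 by 0.71, but the granule proteins Chgb, Scg2, Scg3 and Scg5 lay between -0.34 and 0.09 and did not pass. Rab3c rose by 0.93, and 1 of its 2 other probes had the opposite sign.

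Many products of goblet cells rose, but the main mucin missed the threshold. Of 30 goblet products tested, 15 rose (50%, against 6.57% of all features) and none fell, with a median of 0.54. With arrays scaled to each other, however, the median was -0.01 and 7 rose. Ccl9, a chemokine, led with values of 1.02, 0.57, 0.35, 0.34 and 0.87 on the control arrays and 2.48, 2.76, 2.94, 2.58 and 3.47 on the N1N2 arrays, no overlap and a 4.65-fold rise (log2 change 2.22, SE 0.21, adjusted p = 8.08e-06). Agr2, the disulfide isomerase that folds mucins, had values of 6.97, 6.69, 6.52, 6.98 and 6.93 on the control arrays and 8.45, 7.74, 8.28, 8.06 and 7.92 on the N1N2 arrays. All N1N2 arrays were above all control arrays, and Agr2 was 2.42-fold higher (adjusted p = 0.000631). Muc2, the mucin that forms the mucus gel, had values of 5.07, 5.15, 5.16, 5.54 and 5.51 on the control arrays and 6.25, 5.38, 5.76, 5.67 and 5.43 on the N1N2 arrays. N1N2 array 1 was the highest, N1N2 arrays 2 and 5 fell within the control range, and the change of 0.41 did not pass (adjusted p = 0.286).

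Genes of granule traffic rose, Rep15 by 1.65, Sytl2 by 1.61 and Sytl4 by 0.96, as did the resistin-like peptide Retnlb by 1.81 and the phospholipase Pla2g10 by 1.15. Retnlb values on N1N2 arrays ran from 2.36 on array 2 to 4.64 on array 3, a wide spread. The trefoil peptide Tff3 rose by 0.62 (adjusted p = 0.0448), but by scaling between arrays its change was -0.02. Fcgbp (0.56), Spink4 (0.54), Clca1 (0.30) and Zg16 (0.25), further proteins of the mucus, did not pass.

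The enzymes that build the sugar chains of mucins rose as well. Of 34 tested, 16 rose (47.1%, against 6.57% of all features) and none fell, with a median of 0.53. Groups did not overlap for 14 of the 16, and for 1101 of all 1573 features that were higher. With median centring or with scaling, 9 rose in each case. Fut2, the fucosyltransferase that makes the secretor antigen, had values of 0.87, 0.78, 0.94, 0.97 and 0.92 on the control arrays and 2.48, 2.48, 3.97, 2.07 and 2.85 on the N1N2 arrays. The control arrays lay close together and N1N2 array 3 stood above the rest, and Fut2 was 3.67-fold higher (log2 change 1.88, SE 0.27, adjusted p = 0.000461). Galnt12, which adds the first sugar of a mucin chain, had values of 2.39, 2.72, 2.54, 2.84 and 2.69 on the control arrays and 3.58, 4.27, 4.28, 4.28 and 4.04 on the N1N2 arrays and was 2.74-fold higher with no overlap. Its relatives Galnt7, Galnt10, Galnt5 and Galnt3 rose by 1.14, 0.80, 0.71 and 0.57, whereas Galnt1, Galnt2 and Galnt11 lay between -0.04 and 0.03 and did not pass. The branching enzyme Gcnt3 rose by 1.41, the sulfotransferase Chst4 by 1.13 and the sialyltransferase St6galnac6 by 1.13. The enzymes Gfpt1 and Uap1, which supply the sugar donor UDP-N-acetylglucosamine, rose by 0.49 (second probe 0.05) and 0.52, and C1galt1c1, the chaperone of the core 1 enzyme, by 0.54, while that enzyme, C1galt1, was at 0.36 (adjusted p = 0.165). The largest member that missed the threshold was St6galnac1 (0.91). None of the 34 passed with slide as a block, 10 rose without the shared slide's arrays, and all 10 were also higher on that slide.

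**Figure D3:**
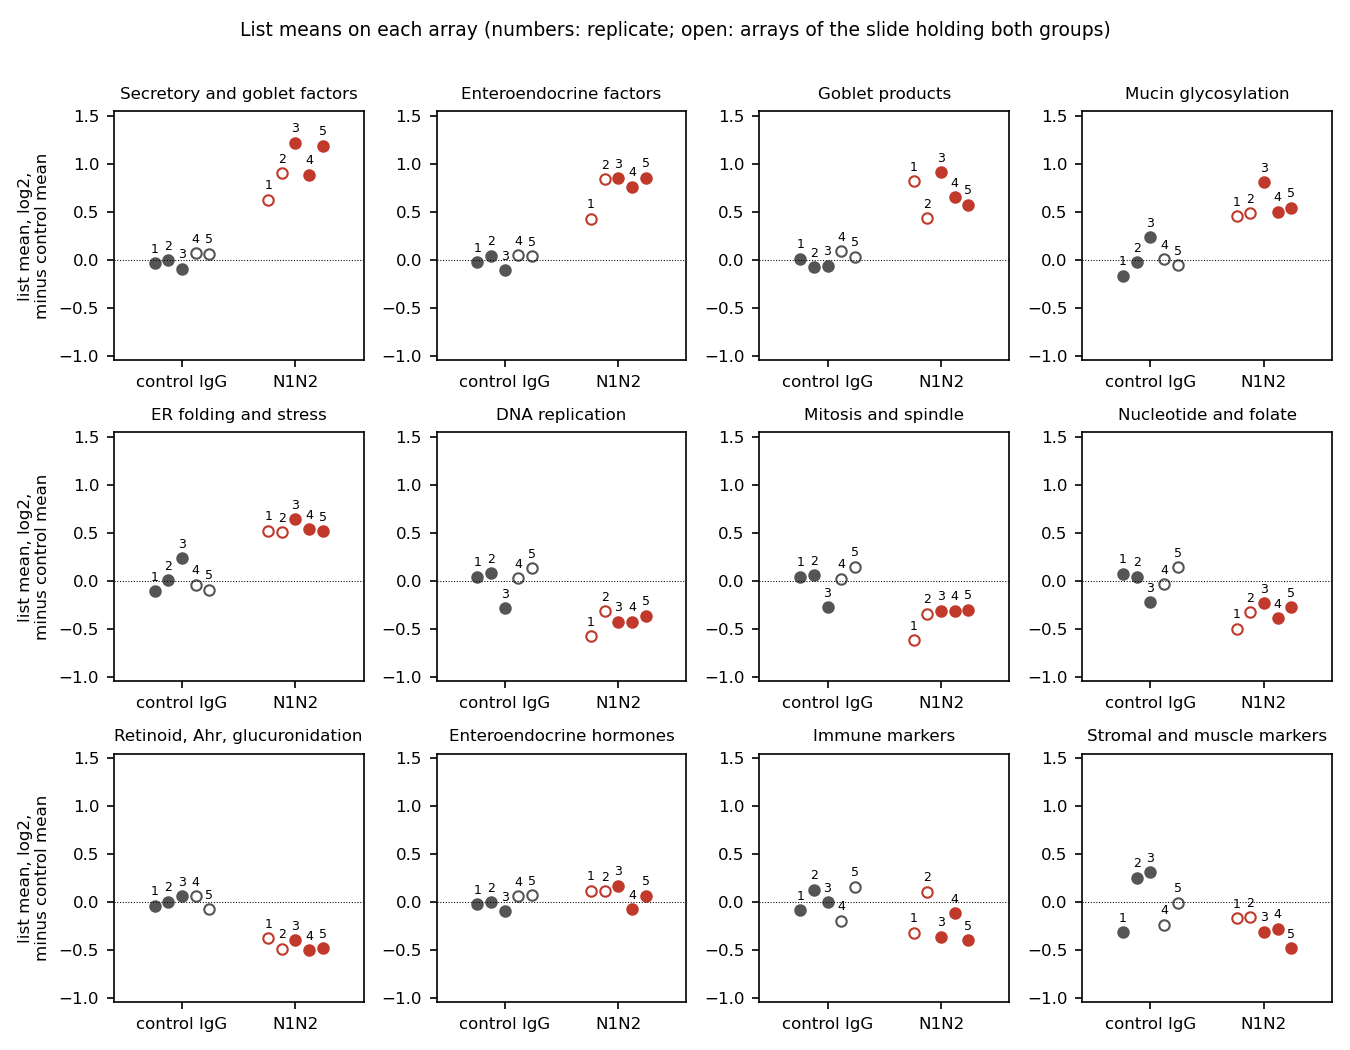
Mean log2 ratio of the tested members of 12 gene lists on each array, less the control mean (y axis), with the replicate number at each point and the arrays of the shared slide open. The N1N2 arrays lie above all control arrays for the 5 lists from secretory factors to ER folding and below them for DNA replication, mitosis, nucleotide synthesis and the retinoid list, while hormones, immune and stromal markers overlap.

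The plot of list means on each array shows how the groups of arrays relate. The mean of the goblet products was 4.12 ± 0.07 in the control group and 4.81 ± 0.19 in the N1N2 group (SD, n = 5 each), and that of the glycosylation enzymes 1.86 ± 0.15 and 2.42 ± 0.14. Control array 3 was the highest control for protein folding and glycosylation, and the lowest for DNA replication and mitosis. N1N2 array 1 was the lowest of its group for the secretory and enteroendocrine factors and also for DNA replication and mitosis. Control array 3 thus lay nearest to the N1N2 group in these 4 lists, while N1N2 array 1 lay nearest to the controls for the factors and farthest from them for replication and mitosis. The retinoid list had 1.87 ± 0.06 and 1.42 ± 0.06 for the control and N1N2 groups.

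Genes of protein folding in the endoplasmic reticulum (ER) rose. Of 48 tested, 18 rose (37.5%, against 6.57% of all features) and none fell, with a median of 0.38, and 9 rose at least 2-fold. With median centring 10 rose. Ern2, the sensor found in mucus-making epithelia, had values of 1.45, 1.71, 1.75, 1.83 and 1.88 on the control arrays and 2.67, 3.88, 3.90, 3.68 and 3.52 on the N1N2 arrays. N1N2 array 1 was lowest in its group and above all controls, and Ern2 was 3.5-fold higher (log2 change 1.81, SE 0.23, adjusted p = 0.000129). Its ubiquitous relative Ern1 (0.11) and the sensors Atf6 (0.20) and Eif2ak3 (0.20) did not pass. Pdia6, a disulfide isomerase, had values of 1.00, 1.28, 1.44, 1.32 and 1.16 on the control arrays and 2.16, 2.35, 2.54, 2.62 and 2.25 on the N1N2 arrays, with no overlap, and was 2.21-fold higher (log2 change 1.14, SE 0.19, adjusted p = 0.00148). The isomerases Pdia5, Txndc5 and Pdia4 rose by 1.51, 1.31 and 1.04, and the disulfide reductase Dnajc10 by 1.25.

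Hspa5, the main ER chaperone, had values of 1.92, 1.90, 2.62, 2.12 and 1.79 on the control arrays and 3.00, 2.87, 2.74, 2.97 and 2.59 on the N1N2 arrays. Control array 3 reached above 1 N1N2 array, and the change of 0.77 did not pass (adjusted p = 0.0895). The chaperones Hsp90b1 and Calr rose by 1.09 and 0.99, and the glycoprotein sensor Uggt1 by 0.73. Syvn1, Derl3, Edem1 and Herpud1, which send misfolded proteins to be degraded, rose by 0.95, 0.90, 0.57 and 0.52. The stress factor Ddit3 (0.21) did not pass. Control array 3 was the highest control for 12 of the 18 that rose. The plot of the ER genes ranks all 48 with their errors, from Ern2 down to Ero1a (-0.10).

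**Figure D4:**
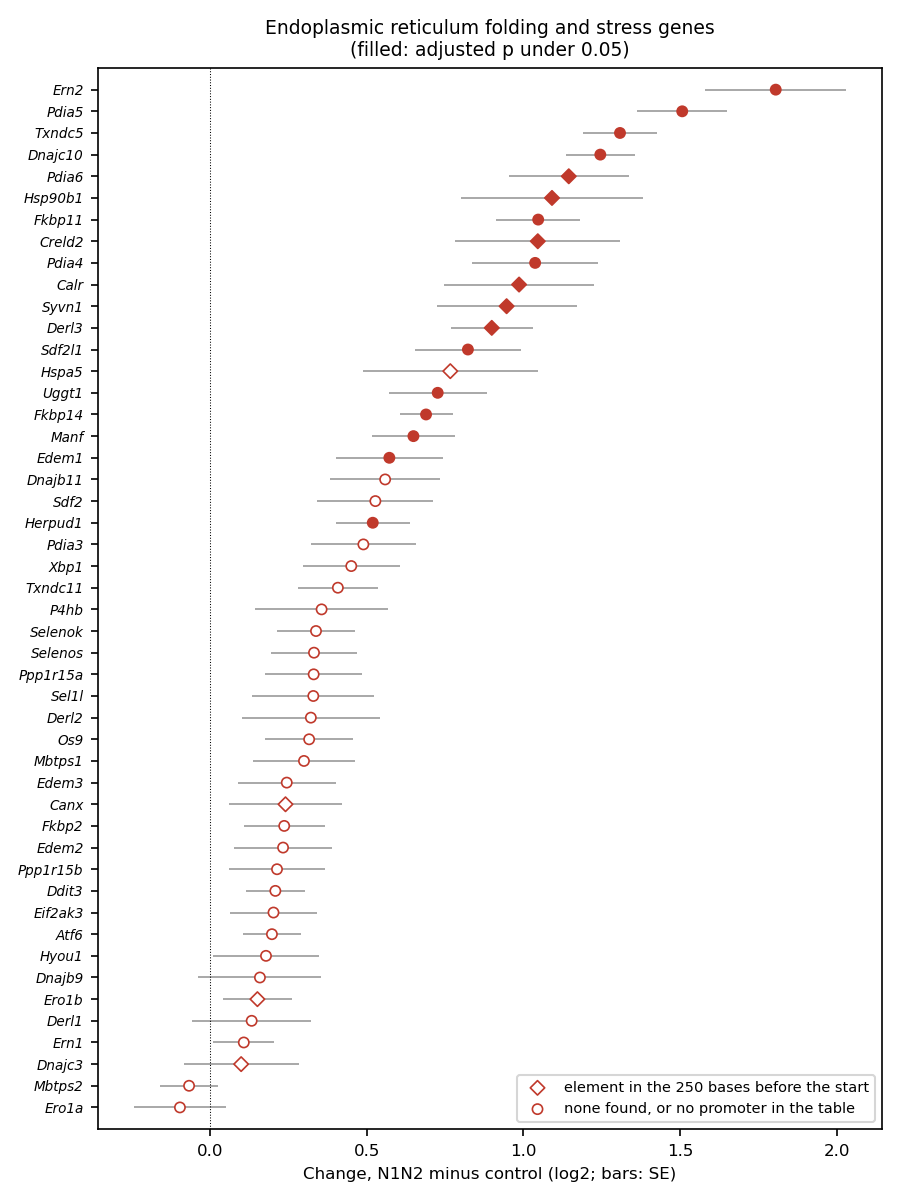
Change of the 48 ER folding and stress genes, N1N2 minus control in log2 units (x axis; bars are the fit's SE), with filled points for an adjusted p under 0.05. Diamonds mark genes with the stress element in the 250 bases before the start; they are spread through the ranking, from Pdia6 (1.14) to Dnajc3 (0.10).

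Many ER genes carry the ER stress element, CCAAT and CCACG set 9 bases apart, which Atf6 and Xbp1 bind with NF-Y. The 250 bases before each start site of the RefSeq promoter table (build GRCm38.p6) were searched on both strands. The element was in 10 of 51 promoters (19.6%) of the tested members and in 6 of 20 promoters (30.0%) of those that rose, against 37 of all 32851 promoters (0.113%). The matches in members that rose, and in Hspa5 for comparison, follow in the gene's own direction, with the element (or its reverse complement) in capitals.
Pdia6, chr12:17266479-17266521 (plus strand): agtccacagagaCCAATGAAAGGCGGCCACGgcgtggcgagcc
Hsp90b1, chr10:86705626-86705668 (minus strand): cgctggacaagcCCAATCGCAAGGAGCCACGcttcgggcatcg
Hsp90b1, chr10:86705521-86705563 (minus strand): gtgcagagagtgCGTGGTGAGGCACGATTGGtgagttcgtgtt
Creld2, chr15:88819508-88819550 (plus strand): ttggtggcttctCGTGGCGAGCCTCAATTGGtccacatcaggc
Calr, chr8:84847063-84847105 (minus strand): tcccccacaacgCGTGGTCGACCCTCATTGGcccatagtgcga
Syvn1, chr19:6046520-6046562 (plus strand): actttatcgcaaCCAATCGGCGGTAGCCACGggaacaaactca
Derl3, chr10:75893230-75893272 (plus strand): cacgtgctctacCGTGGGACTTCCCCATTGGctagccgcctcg
Hspa5, chr2:34772013-34772055 (plus strand): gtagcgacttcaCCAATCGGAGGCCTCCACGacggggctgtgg
Hsp90b1 held 2 copies, in opposite directions. The element was also found in Canx (0.24), Ero1b (0.15) and Dnajc3 (0.10), which did not pass, and was not found in these windows of Pdia5, Txndc5 and Dnajc10, which rose. Over all promoters searched, 35 genes had the element and 18 of them were tested. Of these 8 rose (44.4%) and none fell, with a median of 0.42 and 0.35 on the shared slide, against 6.87% higher, 5.93% lower and a median of -0.0022 for all 12764 tested genes with a promoter. The ER list members named above are among these genes, so the count is not separate from theirs. Outside the ER list the genes that rose were Pan2 (0.39) and Ptgdr2 (0.45). Those that did not pass were, besides Alg12, Xlr3b (0.74), Zfp57 (0.04), Olfr59 (-0.04), Hnrnpa3 (-0.11) and Acacb (-0.33). Alg12 shares the element of its neighbour Creld2, which lies head to head with it, and was at -0.02. A match describes the letters and is no measure of binding.

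Genes that bring proteins into the ER and on to the Golgi changed less. Of 36 translocation and signal peptide genes 6 rose (16.7%, against 6.57% of all features), with a median of 0.21. With median centring, however, the median was -0.01 and none rose. The 6 were the oligosaccharyltransferase subunits Rpn1 (0.75) and Ddost (0.73), the channel subunits Sec61a1 (0.61), Sec61g (0.51) and Sec61b (0.49), and the signal peptidase Sec11c (0.54). A second Sec61b probe was at 0.14. Of 50 ER to Golgi genes 6 rose (12%) and 1 fell (2%), against 6.57% and 5.15% of all features. Their median was 0.08, but -0.12 with median centring and -0.08 with scaling. Those that rose most were the cargo receptors Tmed3 (0.84) and Tmed9 (0.76) and Ergic1 (0.68), a second Tmed9 probe was at 0.12, and none of the 6 passed with median centring or with slide as a block. The coat subunit Copz2 fell by 0.27.

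Atf4, the factor that answers amino acid shortage and ER stress, had values of -0.07, -0.38, -0.14, -0.35 and -0.26 on the control arrays and 0.41, 0.46, 0.35, 0.72 and 0.44 on the N1N2 arrays. The groups did not overlap, and Atf4 rose by 0.71 (log2 change 0.71, SE 0.08, adjusted p = 6.76e-05), also on the shared slide (0.74, adjusted p = 0.0424), while a second Atf4 probe was at 0.16. Of 43 genes of its response 10 rose (23.3%) and 2 fell (4.65%), against 6.57% and 5.15% of all features. Their median was 0.18, or -0.01 with median centring, where 3 rose. Vldlr, a lipoprotein receptor, had values of -3.10, -3.02, -3.25, -2.70 and -3.09 on the control arrays and -1.69, -0.80, -0.90, -0.85 and -0.97 on the N1N2 arrays, with no overlap, and was 3.98-fold higher. The amino acid carriers Slc1a5, Slc6a9, Slc7a5 and Slc7a1 rose by 1.13, 0.93, 0.53 and 0.39, and the synthetases Wars and Cars by 1.14 and 0.62. Second probes were at 0.03 for Slc7a5 and 0.25 for Wars. Cth, which makes cysteine, fell by 1.09. The usual markers of the response Asns (0.26), Trib3 (-0.21), Chac1 (0.19) and Psat1 (-0.11) did not pass.

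Among the other lineages, Wnt3, the Wnt ligand of Paneth cells, had values of 1.12, 1.04, 1.46, 1.26 and 1.37 on the control arrays and 2.11, 3.31, 3.70, 3.14 and 3.49 on the N1N2 arrays. N1N2 array 1 was lowest of its group, the groups did not overlap, and Wnt3 was 3.73-fold higher (log2 change 1.90, SE 0.25, adjusted p = 0.000176). Of 30 Paneth cell genes tested 4 rose (13.3%), Wnt3, Dll4, Sox9 and Fgfrl1 (0.67), and 1, Copz2, fell (3.33%). Over all features 6.57% rose and 5.15% fell. The median of the Paneth list was 0.30 and turned to -0.22 with scaling. The count that rose was 7 without N1N2 array 1. The antimicrobial products did not pass. Lyz1 had values of 7.61, 7.47, 7.30, 7.75 and 7.73 on the control arrays and 7.37, 7.41, 8.17, 7.61 and 7.50 on the N1N2 arrays, with overlapping groups and a change of 0.04 (adjusted p = 0.954). The alpha-defensins tested lay between 0.20 and 0.36, are close copies of each other and cannot be told apart with certainty by these probes. Mmp7, which activates them, was at 0.62 (adjusted p = 0.0998) without overlap.

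Of 28 tuft cell genes 2 rose (7.14%, against 6.57% of all features), the keratin Krt18 (0.83), which other epithelial cells also make, and the taste channel Trpm5 (0.39), and neither passed with slide as a block. Leaving out control array 1, 2, 3 or 5 or N1N2 array 4 or 5 left 1 of them. Pou2f3 (0.07), which specifies tuft cells, and Dclk1 (-0.22) did not pass. Of 58 enterocyte genes for digestion, absorption and the brush border, none rose. The gene for adenosine deaminase (Ada) alone fell, by 0.94 (1.72%, against 5.15% of all features). Their median was 0.20, or -0.03 with median centring and -0.48 with scaling, where 12 fell. Fabp1 (0.19), Alpi (-0.14) and Sis (0.43) did not pass. The direction of this list thus changed with the normalization.

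Genes of crypt base stem cells went both ways. Of 37 tested 7 fell (18.9%) and 4 rose (10.8%), against 5.15% and 6.57% of all features, with a median of -0.09. Ascl2, a Wnt-driven factor that maintains these cells, had values of 2.93, 3.13, 2.46, 3.29 and 3.47 on the control arrays and 1.104, 1.59, 1.86, 1.32 and 2.14 on the N1N2 arrays. All N1N2 arrays lay below all control arrays, and Ascl2 was 2.73-fold lower (log2 change -1.45, SE 0.24, adjusted p = 0.00143), and lower on the shared slide (-2.03, adjusted p = 0.0265). Without that slide's arrays it was at -1.07 and did not pass (adjusted p = 0.0922). With flagged spots kept in the background fit 2 members of the list fell, and 8 with median centring. The surface protein genes Slc14a1, Scn2b and Aqp4 fell by 1.13, 1.03 and 1.01, with overlap for Aqp4. Cdca7, Fstl1 and Tnfrsf19 fell by 0.67, 0.66 and 0.56. Second probes were at -0.22 for Aqp4 and -0.04 for Tnfrsf19. Lgr5, the R-spondin receptor by which the cells are known, had values of 2.39, 2.64, 2.37, 2.83 and 2.97 on the control arrays and 1.29, 2.18, 2.73, 1.84 and 2.41 on the N1N2 arrays. N1N2 array 1 was far below the controls, N1N2 array 3 lay among them, and the change of -0.55 did not pass (adjusted p = 0.164). Phlda1 had values of -2.12, -2.51, -2.32, -2.50 and -2.46 on the control arrays and -1.20, -0.81, -0.74, -0.69 and -0.48 on the N1N2 arrays, with no overlap, and was 3.03-fold higher, and Mex3a, Sox9 and Hopx, known from less cycling or reserve cells, rose by 1.01, 0.94 and 0.70. Smoc2 (-0.51), Axin2 (0.14) and Myc (-0.56) did not pass.

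Genes of DNA replication fell, from origin loading to the polymerases. Of 51 tested, 29 fell (background 5.15%) and 1, the clamp loader subunit Rfc1, rose. The median was -0.44, and -0.57 on the shared slide. Mcm3, a subunit of the helicase that opens DNA, had values of -0.83, -0.57, -1.054, -0.68 and -0.50 on the control arrays and -1.84, -1.22, -1.59, -1.63 and -1.54 on the N1N2 arrays. All N1N2 arrays were below all controls, with control array 3 nearest to them, and Mcm3 was 1.79-fold lower (log2 change -0.84, SE 0.14, adjusted p = 0.00136). The other helicase subunits Mcm6, Mcm4, Mcm2, Mcm5 and Mcm7 fell by 0.80, 0.69, 0.59, 0.55 and 0.40, and the GINS subunits Gins1 to Gins4 by between 0.43 and 0.75. Polymerase genes Pola1, Pole2 and Pold2 fell by 0.83, 0.74 and 0.73, and the sliding clamp Pcna by 0.78. No member fell 2-fold, and Cdc6 (-0.10), Cdc45 (-0.14) and Mcm10 (-0.09) did not pass. Control array 3 was the lowest control for 28 of the 29 that fell. The count was 19 without control 5, 15 with median centring and 18 with scaling. With slide as a block none passed, and 1 fell without the shared slide's arrays, where the median was -0.39.

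Nucleotide and folate synthesis fell with it. Of 35 tested, 17 fell (48.6%, against 5.15% of all features) and 1 rose, with a median of -0.40. Shmt1, which feeds 1-carbon units into thymidylate and purines, had values of 0.33, 0.12, -0.33, 0.09 and 0.40 on the control arrays and -1.15, -1.30, -0.85, -1.13 and -0.95 on the N1N2 arrays. The groups did not overlap, and Shmt1 was 2.29-fold lower (log2 change -1.20, SE 0.14, adjusted p = 5.96e-05), also on the shared slide (-1.47, adjusted p = 0.0128). The purine enzymes Atic, Gart and Ppat fell by 0.91, 0.67 and 0.62, the folate enzyme Mthfd1 by 0.87, and the ribonucleotide reductase subunit Rrm1 by 0.55. Its partner Rrm2 was at -0.45 (adjusted p = 0.137) and thymidylate synthase Tyms at 0.02. The count of 17 became 8 without control 5, 9 without control 2, 10 without N1N2 array 4, 11 without control 1 or N1N2 array 2, 8 with median centring and 9 with scaling. With slide as a block 1 of these genes fell, and without the shared slide's arrays 2 did.

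Mitosis genes made the third such group. Of 61 tested, 29 fell (47.5%, against 5.15% of all features) and 1 rose, with a median of -0.38, and -0.58 on the shared slide. Pbk, a mitotic kinase, had values of -1.39, -1.59, -2.08, -1.73 and -1.60 on the control arrays and -2.79, -3.13, -2.55, -3.03 and -2.41 on the N1N2 arrays, and all N1N2 arrays lay below all controls. It was 2.15-fold lower (log2 change -1.10, SE 0.22, adjusted p = 0.00484). The microtubule regulator Stmn1 fell by 0.99, the checkpoint protein Mad2l1 by 0.92, the cyclins Ccna2, Ccnb1 and Ccnb2 by 0.76, 0.68 and 0.66, and the kinases Plk1 and Cdk1 by 0.56 and 0.53. Mki67 had values of -0.96, -0.81, -1.17, -0.85 and -0.67 on the control arrays and -1.08, -0.72, -0.95, -0.32 and -0.76 on the N1N2 arrays, with overlapping groups (change 0.13, adjusted p = 0.651), and Top2a (-0.47) did not pass. The phosphatase Cdc25b rose by 0.84. The count of 29 became 15 without control 2 or without control 5, 19 without N1N2 array 1, 13 with median centring and 19 with scaling, and none fell with slide as a block or without the shared slide's arrays.

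Of 34 genes that govern entry into the cycle 4 rose (11.8%) and 3 fell (8.82%), against 6.57% and 5.15% of all features. Their median was 0.04, or -0.17 with median centring. Gadd45g, a brake on Cdk1, had values of -0.88, -1.50, -0.76, -1.29 and -1.16 on the control arrays and 0.18, 0.57, 0.78, 0.49 and 0.73 on the N1N2 arrays. The groups lay apart, and Gadd45g was 3.18-fold higher (log2 change 1.67, SE 0.17, adjusted p = 1.47e-05), also on the shared slide (1.598, adjusted p = 0.0162). Its relatives Gadd45b and Gadd45a rose by 0.64 and 0.36, and the antiproliferative gene Btg2 by 0.33. E2f8, Cdkn2c and E2f1 fell by 0.71, 0.57 and 0.39. The D cyclin Ccnd1 (-0.13) and the inhibitors Cdkn1a (0.12), Cdkn1b (0.09) and Cdkn1c (0.23), which stop the cycle in many differentiating cells, did not pass.

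E2F factors switch on replication genes through TTTCGCGC or TTTGGCGC. These letters, searched on both strands in the same 250 bases, were in 0.654% of all promoters. They were in 7 of 49 promoters (14.3%) of the tested replication genes and in 4 of 25 (16.0%) of those that fell. For the mitosis genes they were in 4 of 56 (7.14%) of those tested and in 1 of 24 (4.17%) of those that fell. The genes that fell with a match were the following, with the match (or its reverse complement) in capitals and in the gene's own direction.
Mcm5, chr8:75109344-75109375 (plus strand): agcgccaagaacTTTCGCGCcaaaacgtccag
Uhrf1, chr17:56304116-56304147 (plus strand): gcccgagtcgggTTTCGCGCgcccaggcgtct
Mcm6, chr1:128359796-128359827 (minus strand): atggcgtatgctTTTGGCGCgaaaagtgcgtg
Mcm6, chr1:128359733-128359764 (minus strand): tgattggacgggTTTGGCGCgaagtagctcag
Pola1, chrX:93632274-93632305 (minus strand): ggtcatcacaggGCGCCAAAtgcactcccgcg
Cdk1, chr10:69353024-69353055 (minus strand): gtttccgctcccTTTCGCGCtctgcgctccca
In Mcm5 a further match, and in Mcm6 a match beside the 2 shown, overlaps the first one on the other strand. Matches were also found in the replication genes Orc1 (-0.19), Dnmt1 (-0.27) and Rfc3 (-0.44), which did not pass. The same holds for the mitosis genes Ncapd2 (-0.22), Kif15 (-0.25) and Kif18a (-0.27). A second probe was at -0.11 for Uhrf1 and at 0.05 for Cdk1. Over all promoters searched, 160 tested genes had a match, of which 8.12% fell and 3.75% rose, with a median of -0.03. Of all tested genes with a promoter 5.93% fell and 6.87% rose. The Rbpj letters TGGGAA were in 21.6% of promoters, and of the tested genes with them 7.29% rose and 5.54% fell. They were found neither in Nrarp nor, like the Hes1 letters CACNAG, in Neurog3, Atoh1 or Dll1.

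Ribosome biogenesis, a marker of growing cells, fell in part. Of 61 genes 9 fell (14.8%) and 1 rose (1.64%), against 5.15% and 6.57% of all features, with a median of -0.09. The count that fell was 5 with scaling, or without control array 1, 2 or 5 or N1N2 array 1 or 4, and 15 without control array 3. The nucleolar proteins Ncl, Fbl and Dkc1 fell by 0.78, 0.65 and 0.61, and Npm1 was at -0.54 (adjusted p = 0.0571). None passed with slide as a block. Of 38 cholesterol and fatty acid genes 4 fell (10.5%), led by the acetate-activating Acss2 (-0.74), and 1, Acly (0.46), rose (2.63%). Over all features 5.15% fell and 6.57% rose. A second Acly probe had the opposite sign. Leaving out control array 2 or 5 or N1N2 array 5 left 1 fall, and leaving out control array 4 or N1N2 array 2 or 4 left 2.

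Genes of retinoid and drug metabolism were among those that fell. Of 48 tested genes of retinoid handling, the aryl hydrocarbon receptor (Ahr) and conjugation 18 fell (37.5%) and 1, Rdh16, rose (2.08%). Over all features 5.15% fell and 6.57% rose. The median of the list was -0.23. With median centring 18 fell, with scaling 23, and with flagged spots kept in the background fit 6. Rbp7, a cellular retinol-binding protein, had values of 5.39, 5.24, 4.91, 5.27 and 5.36 on the control arrays and 1.90, 1.84, 2.03, 1.81 and 2.66 on the N1N2 arrays. The groups were far apart and N1N2 array 5 stood above the rest of its group. Rbp7 was 9.11-fold lower (log2 change -3.19, SE 0.16, adjusted p = 5.5e-08), with -3.45 on the shared slide (adjusted p = 0.000468). The retinal dehydrogenases Aldh1a3, Aldh1a2 and Aldh1a1, which make retinoic acid, fell by 1.02, 0.66 and 0.63. Rbp2, the main retinol carrier of enterocytes (0.20), and the receptors Rara, Rarb and Rarg (between -0.22 and 0.21) did not pass.

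Cyp1a1, the enzyme that Ahr induces most, had values of 4.82, 4.72, 4.37, 5.05 and 4.49 on the control arrays and 1.41, 3.39, 2.20, 3.57 and 4.11 on the N1N2 arrays. The groups did not overlap, but the N1N2 arrays were spread widely, from array 1, the lowest, to array 5, near the controls. Cyp1a1 was 3.37-fold lower (log2 change -1.75, SE 0.46, adjusted p = 0.0239). Ahr itself and its repressor Ahrr fell by 0.65 and 0.46, and Nqo1, another gene it induces, by 0.90. Its targets Cyp1b1 (-0.10) and Tiparp (-0.14) did not pass. Ugt2b5, a glucuronosyltransferase, had values of 3.78, 4.02, 4.13, 3.99 and 3.68 on the control arrays and 1.84, 2.41, 2.45, 1.94 and 2.24 on the N1N2 arrays, and Ugt2b38 had 4.92, 4.87, 5.24, 4.91 and 4.71 on the control arrays and 3.35, 3.45, 3.24, 3.33 and 3.38 on the N1N2 arrays. Both had groups without overlap and were 3.35-fold and 2.99-fold lower. Ugt2b36, Ugt2b35 and Ugt2b37 fell by 1.47, 1.30 and 1.23. These genes are near copies, so their probes may share RNA and they are not independent. The glutathione transferases Gsta4, Gsta3, Gstm1, Gsta2 and Gsta1, which have close relatives too, fell by between 0.53 and 0.97.

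Outside the lists, the glial-factor coreceptor Gfra3 had values of 2.16, 2.21, 1.88, 2.24 and 2.56 on the control arrays and 4.07, 4.79, 4.87, 4.61 and 4.89 on the N1N2 arrays. The groups did not overlap and Gfra3 was 5.41-fold higher (log2 change 2.44, SE 0.20, adjusted p = 2.85e-06). Kit, the receptor for stem cell factor, had values of 2.05, 2.16, 2.24, 2.57 and 2.53 on the control arrays and 4.16, 4.72, 4.97, 4.68 and 5.09 on the N1N2 arrays, again with no overlap, and was 5.33-fold higher. The potassium channel Kcnh3, the RNA-binding protein Celf3, the selenoprotein Selenom and the Ras regulator Rasa4 rose by 2.15, 2.11, 2.05 and 2.02. Among the falls, Cnn3, an actin-binding calponin, had values of -1.45, -1.48, -2.08, -1.67 and -1.42 on the control arrays and -3.43, -2.95, -3.01, -3.23 and -3.04 on the N1N2 arrays and was 2.86-fold lower with no overlap. The phosphatase Akp3, the coenzyme Q kinase Coq8a, the carbonyl reductase Cbr3, the water channel Aqp8 and the semaphorin Sema5a fell by between 1.39 and 1.46. Aqp8 was near the threshold (adjusted p = 0.048), Sema5a far past it (adjusted p = 3.01e-06).

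The change that was largest of all belonged to a probe for which no gene name was given, A_52_P607507. Its values were 4.36, 4.66, 3.97, 4.69 and 5.03 on the control arrays and 0.22, 0.32, 0.83, 0.30 and 0.64 on the N1N2 arrays, which left a wide gap between the groups. It was 16.9-fold lower (log2 change -4.08, SE 0.22, adjusted p = 5.5e-08), and the difference on the shared slide was -4.59 (adjusted p = 3.26e-05 in the blocked fit). The largest rise without a name was that of A_55_P1974984 (2.73).

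Markers of other cells that crypt preparations can hold were examined in the same way. Of 21 stromal and muscle markers none rose and 2, the matrix genes Lum and Dcn, fell (9.52%, against 5.15% of all features), with a median of -0.22 that was 0.22 with scaling. Without control array 2, control array 5 or N1N2 array 4 neither passed, and 4 stromal markers fell without control array 1. Their list mean ran from -3.36 to -2.73 on the control arrays, highest on arrays 2 and 3, and from -3.52 to -3.20 on the N1N2 arrays. Lum had values of -1.17, 0.93, 0.26, -0.84 and 0.78 on the control arrays and -1.06, -0.97, -1.17, -1.74 and -1.44 on the N1N2 arrays. Control arrays 2, 3 and 5 were high, and control arrays 1 and 4 lay among or next to the N1N2 arrays. Of 27 immune markers 4 fell (14.8%, against 5.15% of all features), namely Ccl5, Gzma, Itgax and Cd3e, by between 0.64 and 0.86. Nkg7 alone rose (3.7%, against 6.57% of all features), though its second probe had the opposite sign. With scaling 7 immune markers fell and with median centring 1. Leaving out control array 2 or 5 or N1N2 array 1, 3 or 5 left 1 such fall, and leaving out control array 1 or 3 left 2. The immune list mean ran from 2.01 to 2.37 on the control arrays and from 1.82 to 2.32 on the N1N2 arrays. Of 8 neural markers 1 rose, Nefm (log2 change 0.45), which is 12.5%, against 6.57% of all features. Nefm was not well above background on any control array, and met the filter in the N1N2 group but not in the control group. None of 12 pancreas markers passed. Of 20 immediate early and heat shock genes 1 (5%, against 5.15% of all features), Hsp90aa1, fell, by 0.54. The part of these cells in the changes above was not tested.

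The shared slide allows a check in which the arrays that choose the genes and the arrays that measure them differ. From the 6 arrays of the other slides alone, with the Lrp6 arrays sharing the spread, 587 features were higher and 104 lower at an adjusted p under 0.05. On the shared slide, 579 of the 587 (98.6%) were higher too, where 53.1% of all features were, and 99 of the 104 (95.2%) were lower, where 46.9% of all were. The median of the 587 was 0.91 on the other slides and 0.55 on the shared one, and that of the 104 was -0.79 and -0.75. The plot of both changes shows the higher features mostly under the diagonal and the lower ones around it. The features were chosen by their changes on the other slides, and the shared slide took no part in that choice. The N1N2 arrays of the shared slide include array 1, which was the lowest of its group for many secretory genes. The cause of the smaller median of the 587 there was not tested.

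**Figure D5:**
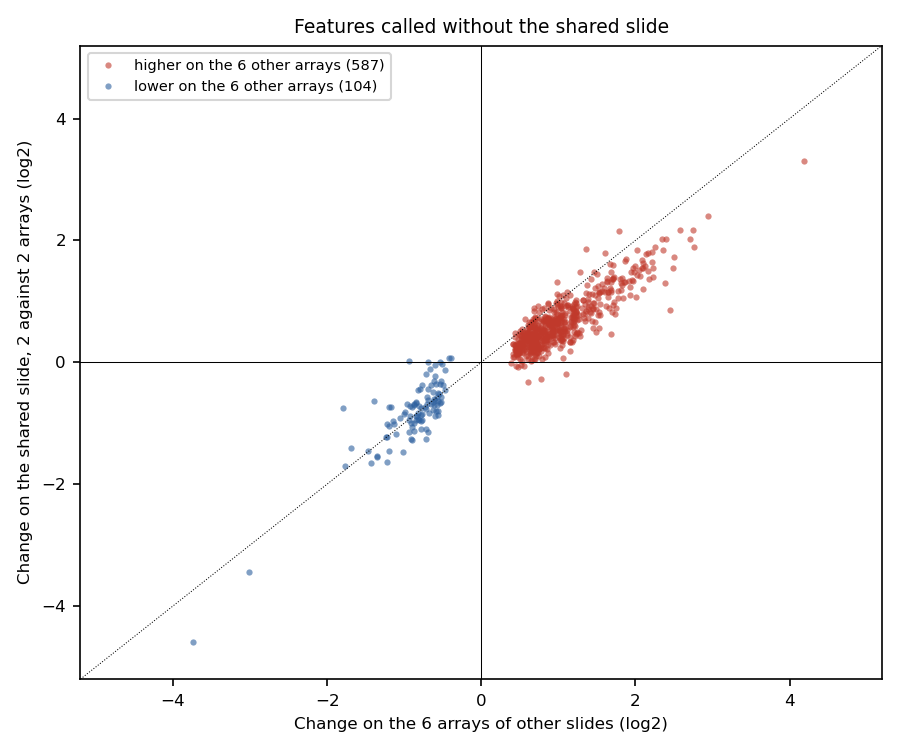
Change on the shared slide, 2 arrays of each group (y axis), against change on the 6 arrays of the other slides (x axis), both N1N2 minus control in log2 units, for features called from those 6 arrays (587 higher, red; 104 lower, blue). The dotted diagonal marks equal change; 579 red points lie above 0 and 99 blue points below 0 on the y axis.

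With slide as a fixed block, 109 features passed (0.455%), 78 higher and 31 lower. Of the genes named here by rule that passed, 84 higher and 63 lower, 26 and 10 passed with the block, and 61 and 18 passed without the shared slide's arrays. All 26 and 7 of the 10 passed in both. Neurog3, Rcor2, Gfra3, Kit, Dll1, Spdef, Syt13, Rep15, Gadd45g and Phlda1 are among the former, and Rbp7, Coq8a, Sema5a and Shmt1 among those that fell with the block. By list, the block left 5 secretory factors, 3 enteroendocrine factors, 4 goblet products and 3 ER folding genes higher and 3 genes of the retinoid list lower. Without the shared slide's arrays these counts were 13, 9, 9, 8 and 7. The replication and mitosis genes had larger median differences on the shared slide than over all arrays and passed in the blocked fit, which rests on 4 arrays, in no case.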

How the data were processed

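Per the file headers, Feature Extraction 11.0.1.1 produced the scanner output of each 2-colour Agilent array. The deposited output gives median red and green intensities and backgrounds for 44397 spots, with a log10 ratio of red over green. A table of log2 ratios deposited by the authors, for which the submitters' processing notes name R 3.0.0 and limma 3.6.7, was used here as an alternative. The design was drawn on build mm9, per the file headers. Here median intensities were background-corrected (normexp, offset 50, flagged spots left out) and loess-normalized within arrays in limma 3.58.1 (R 4.3.3). Spots of a probe were averaged, a probe was kept if at least 4 arrays of any group had it well above background in red, and the brightest probe stood for a gene. Symbols came from accessions in RefSeq (GRCm38.p6), which named 26581 of 39429 probes. All 15 arrays entered a single limma fit, the contrast was N1N2 minus control, and p-values were adjusted by Benjamini-Hochberg over all features at a threshold of 0.05. The procedure was tested on simulated data with known changes. Those data had independent noise on each array and no slide effect, so they cannot speak to differences between slides.

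The members and gene lists were chosen with earlier results of these data known, so lists are described by counts and medians, with no test over a list. Genes named by rule were the 12 largest rises and 12 largest falls among called features whose groups do not overlap, the key members of each list and up to 6 leading called members. Other list members are named as examples chosen after their values were seen. No spot was saturated. For 372 features at least 1 array lacked a value, and the fit used the others. The number of arrays limits the precision. Promoters were searched as described with their sequences. Background correction, normalization, filters, probe choice, slide, array weights and single arrays were varied, and replicate numbers were tried as a block. Some list members are counted but not reported by name here.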

Additional observations from a re-analysis of the deposited data

Results flagged for a closer look

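In a group of 5 arrays, an array was picked out where its gap to the next array was large against the range of the group (Dixon's ratio at its 95% critical value). Over the 456 groups examined 28 stood out, and chance alone picks about 1 in 20. N1N2 array 1 accounted for 14 of them. It was low for Cbfa2t3 (2.989), Rfx6 (2.169), Gfi1 (0.9073), Creb3l1 (1.158), Pax4 (1.817) and Vldlr (-1.688), genes that rose in its group, and in the mean of the enteroendocrine transcription factors (0.8711). It was also low for Sema5a (-0.7154) and Acly (-0.4176), in the means of the mitosis genes (-1.871), G1 genes (-0.4211) and tuft cell genes (1.02), and high for Cdkn2c (-2.898) and the brush border phosphatase Alpi (5.292).

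Control array 3 accounted for 7. It was high for Rpn1 (2.519) and Sec61a1 (3.14), and in the means of the Notch receptors (-0.7578) and ER to Golgi genes (1.109). It was low for Slc1a5 (-0.2886) and Emg1 (-0.3801), and in the mean of the DNA replication genes (-1.423). N1N2 array 3 was high for Chgb (8.181) and in the means of glycosylation (2.671), ER folding (1.441) and ER to Golgi genes (1.096). N1N2 array 4 was high for Jag1 (1.423) and low for Cdh5 (-0.07021), and N1N2 array 5 was high for Rbp7 (2.656).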

How the results depend on the processing

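As reported, 1573 features were higher and 1232 lower. With median centring in place of loess there were 573 and 679. With slide as a fixed block there were 78 and 31, with 146 and 115 where only the 10 control and N1N2 arrays entered that fit, and without the shared slide's 4 arrays 587 and 104. The last 2 settings were chosen after the data were seen. The planned difference on the shared slide alone, with the spread from all arrays, equals the estimate of the blocked fit by construction. Array weights gave 3572 and 3542, and slide as a random block 1922 lower. The fit of the 10 arrays alone gave 1971 lower, flagged spots kept in the background fit 728 lower and the scanner's own log ratio 785 lower. Leaving out 1 array gave 925 to 1548 higher and 592 to 1297 lower, with fewest higher without N1N2 array 4 (925, with 674 lower) and fewest lower without control array 5 (592, with 961 higher) and control array 2 (607, with 939 higher). The other settings kept both counts within 1.5 times, among them no background subtraction, the deposited ratios, scaling between arrays, the filters and the mean over probes. The features called differed more. Scaling kept 1882 of the 2805 calls and gave 21 the opposite sign, while 2784 were kept with the deposited ratios and 2666 without background subtraction. Aquantile normalization between arrays leaves the ratios unchanged, so its calls equal those reported. The cause of these differences was not tested.

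For genes named by rule, 4629 values under the alternatives stayed on their side of the threshold. Genes that passed in neither fit are among these even where their direction changed. A further 593 kept the direction but no longer passed, and 38 newly passed. In 2 cases the direction turned for a gene that passed in at least 1 of the fits. Those 2 came with scaling between arrays, where Tff3 was at -0.0213 and Cdx2 at -0.56 (limma, adjusted p = 0.0475). Same-numbered arrays of the 2 groups deviated together with correlations of 0.626, 0.282, -0.0106, 0.382 and 0.134, so the numbers were not taken to pair them. With the replicate number as a block, 1418 were higher and 1011 lower, and 2227 of the 2805 calls were kept. Own numbers correlated best for 3 of the 5.

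Slide and group are separable on 4 arrays only, and no dye swap was made. Genes with signals near background, and differences smaller than the spread of 5 arrays, were beyond what these arrays resolve.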

Other observations

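The genes in this part were chosen after their values were seen, and their adjusted p-values come from the same limma fit. Several receptors outside the lists rose with no overlap between the groups. Hrh3, a histamine receptor, rose by 1.78 (adjusted p = 3.64e-06), Chrm1, a muscarinic acetylcholine receptor, by 1.64 (adjusted p = 3.9e-06), Ffar2, a receptor for short-chain fatty acids, by 1.68 (adjusted p = 8.37e-06) and the orphan receptor Gpr20 by 1.64 (adjusted p = 2.75e-06). All 4 also passed with slide as a block. Fut1, a fucosyltransferase next to Fut2 in function, rose by 1.80 (adjusted p = 4.55e-05). Among the falls, Cyp39a1, a hydroxylase of oxysterols, fell by 1.23 (adjusted p = 4.76e-07), with the control arrays between -0.35 and -0.17 and the N1N2 arrays between -1.70 and -1.31.

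Some genes of iron handling, picked in this way, fell. Because of that picking, their number is no measure of iron genes as a group. Cybrd1, the iron reductase of the brush border, fell by 1.29 (adjusted p = 0.0162), the iron exporter Slc40a1 by 1.27 (adjusted p = 0.00945), the ferritin receptor Ncoa4 by 0.97 (adjusted p = 0.0142) and the ferritin heavy chain Fth1 by 0.44 (adjusted p = 0.026), each without overlap. The transferrin receptor Tfrc was at -0.47 (adjusted p = 0.124). None of these passed with slide as a block.

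Wt1, a gene known from mesothelium, the lining of the outer gut wall, had values of -4.24, -3.02, -3.74, -3.92 and -2.82 on the control arrays and -4.52, -4.31, -4.61, -4.68 and -5.31 on the N1N2 arrays (change -1.14, adjusted p = 0.00747). Rspo1, a Wnt-boosting ligand, had values of 1.25, 2.97, 1.96, 1.67 and 3.37 on the control arrays and 0.71, 1.26, 1.21, 1.05 and 0.55 on the N1N2 arrays (change -1.29, adjusted p = 0.0199). Msln and Upk3b, also known from mesothelium, fell by 1.17 and 1.13. For these 4 genes control arrays 2 and 5 were the highest. The complement gene C3 fell by 1.73 (adjusted p = 0.00756), highest on control arrays 5, 3 and 2. The part of such cells in other results was not tested.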
